A study of Mus musculus with 12 samples.

Results

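The synaptonemal complex and its associated chromosome axis were represented here by 9 genes, Sycp1, Sycp2, Sycp3, Syce1, Syce2, Syce3, Tex12, Hormad1 and Hormad2. They were taken by name from the deposited expression table as meiotic genes whose transcripts may persist into haploid round spermatids, and all 9 were found among its 28643 usable symbols.

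Round spermatids were sorted by flow cytometry, with cycloheximide present to hold ribosomes in place, from testes of male mice aged 8 weeks. The control animals were heterozygous (Igf2bp3+/-) and the knockout animals homozygous (Igf2bp3-/-) for a Cas9-made frameshift in Igf2bp3, which encodes an RNA-binding protein, so both groups carried the mutant allele and no wild-type libraries were analysed here. For the experiments that include these assays, the study's methods picked knockout males whose fertility was impaired, so the knockout group was not an unselected sample. The deposited table heads the control columns WT, and the genotype in the sample labels, Igf2bp3+/-, was used. RNA of an extract of the sorted cells was sequenced as RNA-seq. mRNA carrying 4 or more ribosomes, collected from a sucrose gradient, was sequenced as ribosome nascent-chain complex sequencing (RNC-seq). By the study's methods the RNA of both assays was poly(A)-selected, so total RNA below means poly(A)-selected RNA of the extract. Each combination of genotype and assay had 3 replicates, 12 libraries in all. By the study's methods, spermatids were isolated mouse by mouse and RNA-seq input and polysomal RNA were drawn from the same extract, but the labels do not tie a library to an animal or an extract.

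The synaptonemal complex is the protein zipper that holds homologous chromosomes together during the prophase of the first meiotic division, when crossovers are made. Lateral elements form along each chromosome axis, transverse filaments span the gap between the axes, and the central element stabilises the filaments where they meet. The structure is taken apart before the meiotic divisions and has no known place in the haploid round spermatid, whereas germ cells are known to keep many transcripts well beyond the stage at which they were made.

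All 9 genes are annotated as protein coding on GRCm38 (GENCODE M21). Sycp1, the transverse filament, lies at chr3:102818499-102936100 on the minus strand. Of the lateral element genes, Sycp2 lies at chr2:178345293-178407685 on the minus strand and Sycp3 at chr10:88459569-88473236 on the plus strand. The central element members are Syce1 at chr7:140777229-140787852 (minus), Syce2 at chr8:84872111-84888221 (plus), Syce3 at chr15:89390174-89410503 (minus) and Tex12 at chr9:50556819-50561325 (minus). The HORMA-domain genes, whose proteins coat unsynapsed axes and are shed as the axes synapse, are Hormad1 at chr3:95559677-95587671 (plus) and Hormad2 at chr11:4345814-4441105 (minus).

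The members span a wide range of sizes. Sycp2 has the longest coding sequence, 1500 codons on a longest annotated transcript of 5717 bases, and Sycp1 follows with 993 codons on 3437 bases. The other 7 are shorter. Hormad1 has 392 codons on 1511 bases, Syce1 329 on 1460 and Hormad2 306 on 1969. Sycp3 has 254 codons on 1169 bases, Syce2 177 on 1686 and Tex12 123 on 1003, and Syce3, the shortest, has 88 codons on 480 bases.

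A pair of members share sequence with other genes in a way that quantification without stated strand use or multi-mapping rules could not fully separate. Of the exonic bases of Sycp3, 52.2% overlap exons of Chpt1, a phosphotransferase gene on the opposite strand. Hormad1 matches Gm15529 at 97.7% identity over 61% of its transcript, although Gm15529 itself was at only 0.613 to 1.94 FPKM. The other 7 members overlap no annotated exon of another gene and have no copy at 95% identity or more over 50% or more of their length, the nearest being Sycp1-ps1 to Sycp1 at 92.4% identity.

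Round spermatid markers were abundant in the libraries and spermatogonial markers scarce. FPKM, a fragment density scaled by transcript length and by library size, can be compared between genes, since it is per length. The deposited table gives no read counts, so depth is known only in relative terms. By the value that 1 fragment is worth in each library, relative depth ran from 0.363 to 1. The summed FPKM of 10 round spermatid markers was 1540 to 2630, that of 10 markers of elongating spermatids 10100 to 23400, and that of 9 spermatogonial markers 3.53 to 5.99. Igf2bp3 itself was at 38.2, 38.6 and 33.4 FPKM in Igf2bp3+/- RNA-seq and at 31.7, 32.5 and 31.4 FPKM in Igf2bp3-/- RNA-seq. The groups did not overlap, but the log2 difference (Igf2bp3-/- minus Igf2bp3+/-) of -0.20 ± 0.09 (SE; limma, adjusted p = 0.335) was not past the limit, an adjusted p of 0.05, and because a frameshift need not remove the transcript, its level is no direct check of the genotype labels.

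Transcripts of all 9 genes were detected in every library, most of them at levels above the middle of all genes. In Igf2bp3+/- RNA-seq, Syce1 was at 243 ± 14.9 FPKM (SD, n = 3), higher than 98.7% of the genes tested. Next came Syce3 at 51.2 ± 13, Sycp3 at 36.7 ± 8.49 and Syce2 at 25.6 ± 2 FPKM (SD, n = 3). These lay above 91%, 88.4% and 85.2% of genes, respectively. A middle group held Hormad1 at 14.5 ± 1.21, Sycp2 at 12.2 ± 1.15 and Sycp1 at 10.8 ± 1.4 FPKM, and at the bottom were Hormad2 at 2.07 ± 0.192 and Tex12 at 1.17 ± 0.259 FPKM (SD, n = 3). The order from Syce1 down to Tex12 therefore spanned levels from among the highest in these cells to below the middle of all genes tested, where Tex12 exceeded 41.7%.

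Neighbours in that order were not all separated by their replicates. The ranges of Syce3 and Sycp3, of Sycp3 and Syce2, and of Sycp2 and Sycp1 overlapped, whereas those of Syce1 and Syce3, Syce2 and Hormad1, Hormad1 and Sycp2, Sycp1 and Hormad2, and Hormad2 and Tex12 did not. Igf2bp3-/- RNA-seq gave the same order of means. There, Syce3 and Sycp3 separated, and Hormad2 and Tex12 overlapped.

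**Figure D1:**
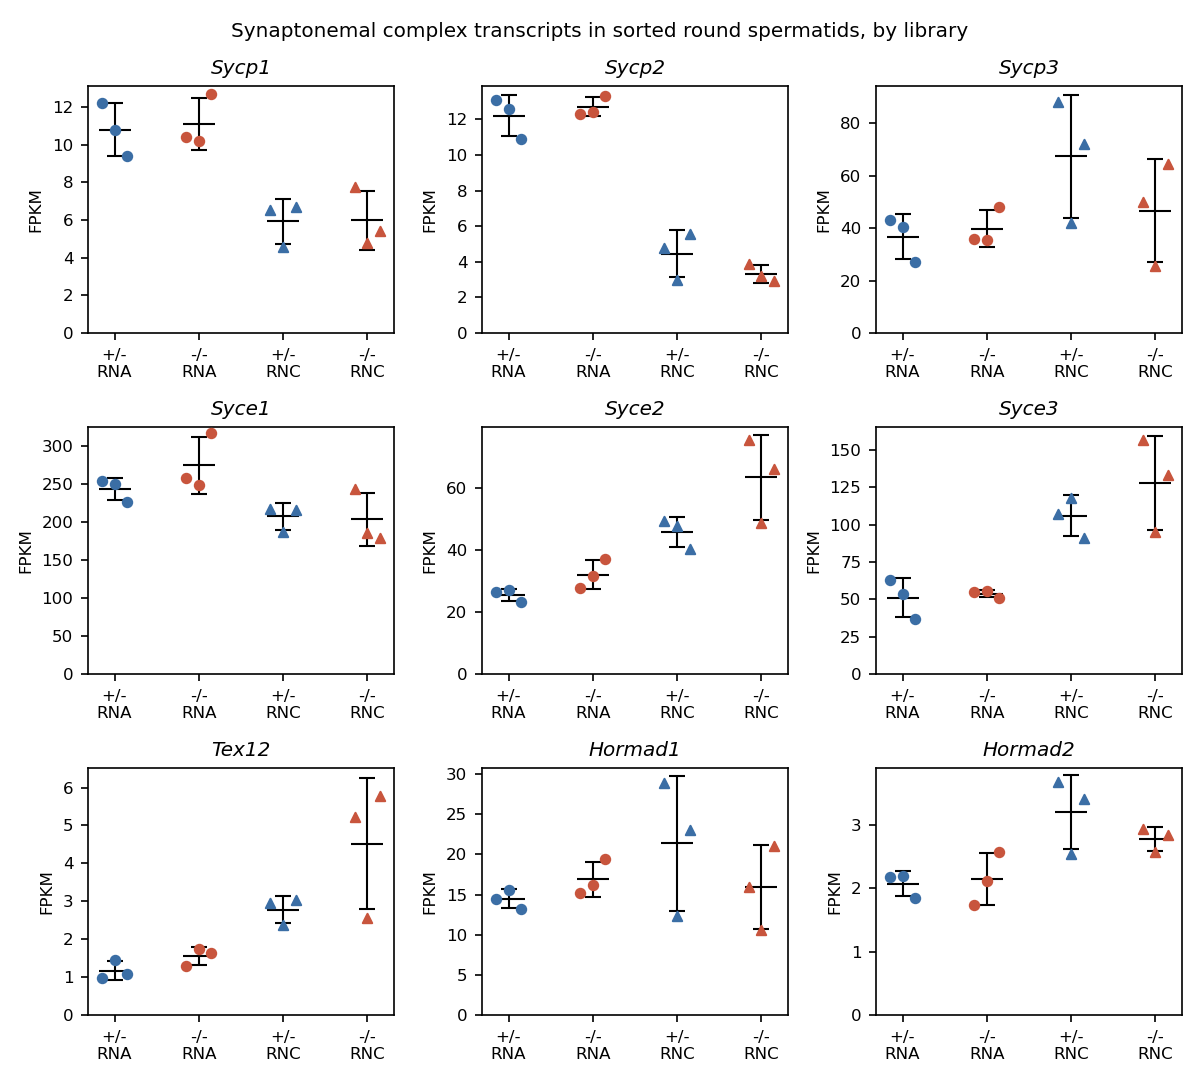
FPKM of the 9 members in each of the 12 libraries, 1 panel per gene on a linear axis from 0; circles are RNA-seq and triangles RNC-seq, blue is Igf2bp3+/- and red Igf2bp3-/-, points run from replicate 1 to 3 from left to right, and black bars are the mean ± SD. Sycp1 and Sycp2 sit lower in RNC-seq than in RNA-seq in every library of both genotypes, whereas Syce2, Syce3 and Tex12 sit higher.

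Syce1, which stabilises the central element, dominated the set. It made up 59.2% to 64.6% of the members' summed FPKM in the 6 RNA-seq libraries and 37.3% to 48.9% in the 6 RNC-seq libraries. Its partners in the same element were present at very unequal levels. Within a library, Syce1 exceeded Syce3 by a ratio of 4.05 to 6.23 in RNA-seq, and Syce2 exceeded Tex12, with which it forms fibres, by a ratio of 18.2 to 27.2. Of the lateral element partners, Sycp3 exceeded Sycp2 by a ratio of 2.47 to 3.62. Hormad1 exceeded Hormad2 by a ratio of 6.69 to 8.75.

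Markers of meiotic prophase gave these levels a context. All 10 spermatocyte markers, 4 of which are also in the list of other meiotic genes given further on, were in the table, and their summed FPKM was 331 to 391 in RNA-seq and 394 to 538 in RNC-seq. In RNA-seq most of that sum was Ccna1, a cyclin of late spermatocytes that stood at 201 to 286 FPKM over the 12 libraries. Markers of the list stood at unequal levels, and those named next were picked after their values were seen. Prdm9, which marks sites of meiotic breaks, was at 0 to 0.301 FPKM and at 0 in both Igf2bp3-/- libraries numbered 2, Ccnb3 was at most 0.298, and the strand exchange recombinase gene Dmc1 was at 0.372 to 0.991 FPKM, whereas Spo11, which makes those breaks, was at 19.7 to 73.8 FPKM. Of the other markers, Pttg1 was at 59.5 to 186 FPKM, Aurkc at 14.0 to 35.7 and Meioc at 4.58 to 10.9. Meiob and Mybl1 were at 1.49 FPKM or less. All 9 members were above Dmc1 in every library, but Tex12 and Hormad2 were below Meioc in every RNA-seq library. In bulk libraries, fewer cells of a type and less RNA per cell cannot be told apart, and neither can transcripts kept by spermatids and transcripts of remaining late spermatocytes.

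The first comparison asked whether loss of Igf2bp3 changed the amount of these transcripts. It did not change any of them past the limit. With limma on log2(FPKM + 0.1), 0 of 9 members passed an adjusted p of 0.05 in RNA-seq, where 0.256% of the 20352 genes tested did, and 1 of 9 was past an unadjusted p of 0.05, where 15.7% of genes were. All 9 log2 differences (Igf2bp3-/- minus Igf2bp3+/-) had a positive value, from 0.03 to 0.39 with a median of 0.13 against 0.05 over all genes, but with quantile normalization those of Sycp1, Sycp2, Syce1 and Syce3 were below 0, and with library weights those of Sycp1, Sycp3 and Hormad2.

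Syce2 was the member past the unadjusted level. It was at 26.4, 27.1 and 23.3 FPKM in Igf2bp3+/- RNA-seq and at 27.7, 31.7 and 37 FPKM in Igf2bp3-/- RNA-seq. The groups did not overlap, which held in this direction for 14.1% of all genes. The log2 difference was 0.32 ± 0.12 (SE; limma, unadjusted p = 0.0306, adjusted p = 0.278). It did not pass the limit.

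Tex12, its partner, was at 0.973, 1.46 and 1.07 FPKM in the control and at 1.28, 1.74 and 1.64 FPKM in the knockout. The ranges overlapped. Its log2 difference of 0.39 had a 95% interval of -0.08 to 0.87 (limma, adjusted p = 0.396), and at this low level each value rests on few fragments, since 1 fragment on a transcript of a kilobase was worth an estimated 0.0389 to 0.107 FPKM.

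For the other 7 members the intervals bound how large a change in total RNA these libraries could have hidden. The tightest were those of Sycp2, at -0.19 to 0.30 around 0.05, and Syce1, at -0.08 to 0.42 around 0.17 on the log2 scale. The interval of Sycp1 was -0.27 to 0.35 and that of Hormad1 -0.05 to 0.50. Syce3, Sycp3 and Hormad2 had wider ones, with lower bounds of -0.29, -0.30 and -0.37 and upper bounds of 0.50, 0.56 and 0.44. A doubling or a halving of total transcript, a log2 difference of 1 or -1, lay outside all 9 intervals. For Sycp3, the overlapping gene Chpt1 was at 16.4, 14.1 and 11.2 FPKM in the control and at 5.91, 7.27 and 8.67 FPKM in the knockout, without overlap. Its log2 difference was -0.93 ± 0.18 (SE; limma, adjusted p = 0.122), not past the limit, and its part in the Sycp3 values was not tested.

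Summed levels of somatic cell markers differed between the genotypes, as values with no test. All 7 Leydig cell markers were in the table, and their summed FPKM was 15.4 to 22.6 in Igf2bp3+/- and 48.6 to 55 in Igf2bp3-/- RNA-seq, led by Insl3, with none at 0. The sum of 9 Sertoli cell markers was 4.36 to 4.99 and 9.32 to 9.78 FPKM. Sox9 and Wt1 were at 0.207 FPKM or less in all 12 libraries. Of this list only Clu (2.738 to 3.626 and 6.635 to 6.794 FPKM) and Ctsl (0.418 to 0.719 and 1.538 to 2.001 FPKM) did not overlap between the genotypes in RNA-seq. The sum of 6 macrophage markers was 4.78 to 6 and 7.89 to 9.09 FPKM, and that of 5 peritubular markers 1.55 to 1.73 and 1.05 to 1.6 FPKM. In RNC-seq the Leydig sum was 6.75 to 14.3 and 51.5 to 103 FPKM, and Lhcgr was at 0 in 2 control libraries. Spermatocyte markers differed less in RNA-seq, at 331 to 353 and 335 to 391 FPKM. The part of these markers in the members' values was not tested.

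The second comparison asked the same of the polysomal RNA. In RNC-seq 0 of 9 members passed the limit, where 0.115% of the 19051 genes tested did, and 0 of 9 reached an unadjusted p of 0.05, where 6.48% did. The members' log2 differences had both signs, with a median of -0.04 against 0.13 over all genes. Centring each library on its median moved that all-gene median to 0.01, the members' median to -0.16 and the all-gene calls from 15 higher and 7 lower to 6 higher and 7 lower.

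Within RNC-seq, Tex12, Syce2 and Syce3 of the 4 central element members had values above 0. Syce1, the lateral element genes and the HORMA-domain genes had values below it, and none of these values held up against the replicate spread. Tex12 was at 2.95, 2.38 and 3.03 FPKM in Igf2bp3+/- and at 5.23, 2.55 and 5.79 FPKM in Igf2bp3-/- RNC-seq, a log2 difference of 0.61 ± 0.32 (SE; limma, adjusted p = 0.789). Syce2 was at 49.4, 47.7 and 40.4 FPKM and at 75.6, 48.8 and 66.1 FPKM, a difference of 0.45 ± 0.22 (SE; limma, adjusted p = 0.768). In both genes 2 of 3 knockout libraries lay above all controls and replicate 2 lay among them. Syce3 had a smaller value, 0.26, from 107, 118 and 91.3 FPKM to 157, 94.8 and 133 FPKM, with the same arrangement of libraries.

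On the other side, Sycp3 was at 88.2, 41.9 and 72.2 FPKM in Igf2bp3+/- and at 50, 25.7 and 64.3 FPKM in Igf2bp3-/- RNC-seq. Its log2 difference was -0.56 ± 0.35 (SE; limma, adjusted p = 0.816), and replicate 2 was the lowest library of both groups. Hormad1 had the same shape, at 28.9, 12.3 and 23 FPKM against 15.9, 10.6 and 21.1 FPKM, with a difference of -0.40 ± 0.33 (SE; limma, adjusted p = 0.85). Sycp2 was at 4.77, 2.99 and 5.55 FPKM and at 3.87, 3.19 and 2.91 FPKM, a difference of -0.37 ± 0.28 (SE; limma, adjusted p = 0.832). The groups overlapped for all 9 members, whereas 11.3% of all genes had groups that did not. Hormad2, Syce1 and Sycp1 were nearest to 0, at -0.19, -0.04 and 0.0029 on the log2 scale.

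The polysomal libraries numbered 2 stood low for most members. Replicate 2 was the lowest of 3 for 7 of 9 members in Igf2bp3+/- RNC-seq and for 7 of 9 in Igf2bp3-/- RNC-seq, where this held for 47.8% and 36.4% of all genes. It was the lowest in both genotypes for 5 of 9 members, Sycp1, Sycp3, Tex12, Hormad1 and Hormad2, against 21.0% of all genes. Their relative depths, 0.501 and 0.525, were the highest of the RNC-seq libraries. The top gene, CT010467.1, took 19.4% of summed FPKM in the control library numbered 2, against 15.9% and 18.4% in the other control RNC-seq libraries. In the knockout it took 11.5%, against 8.14% and 14.6%, and its part in the members' values was not tested. Without both RNC-seq libraries numbered 2, a setting chosen after their values were seen, 0 of 9 members passed the limit for genotype in RNC-seq or in the loading difference described next.

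**Figure D2:**
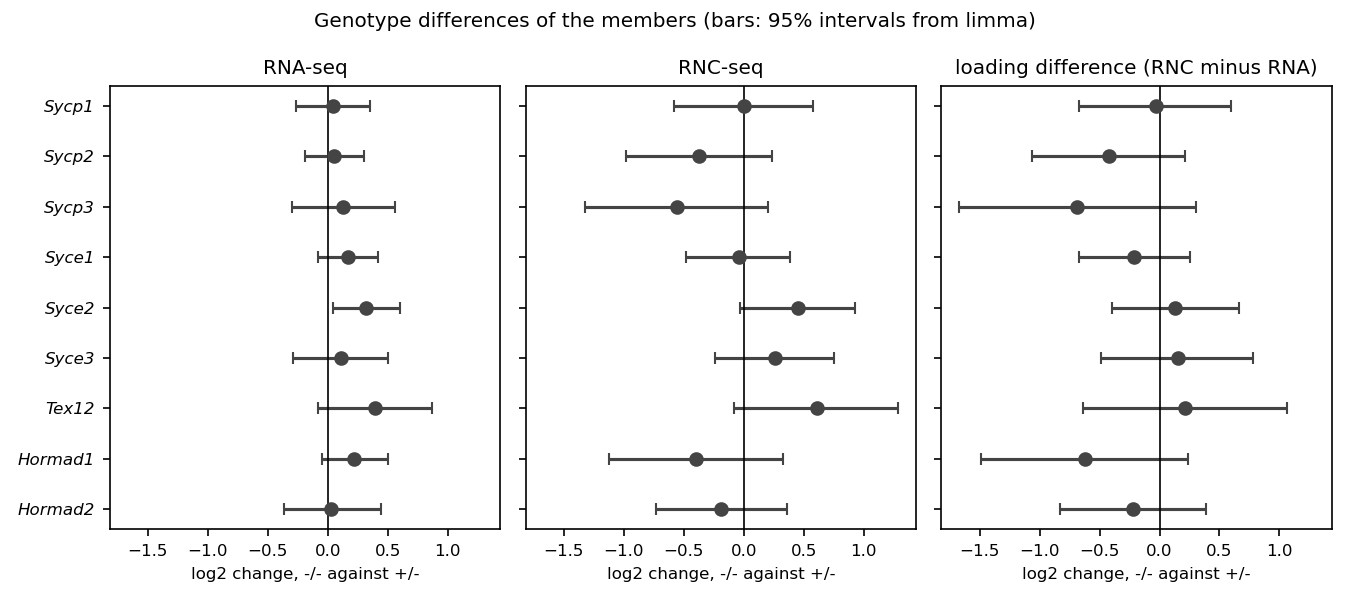
Genotype differences of the 9 members as log2 change, Igf2bp3-/- against Igf2bp3+/-, in RNA-seq, in RNC-seq and in polysome loading (RNC-seq minus RNA-seq); points are limma estimates on log2(FPKM + 0.1) and bars their 95% intervals, over 3 libraries per group. Of the 27 intervals only that of Syce2 in RNA-seq, 0.04 to 0.60, leaves out 0, and it did not pass the limit after adjustment.

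Polysome loading was taken as the log2 ratio of RNC-seq to RNA-seq FPKM, the measure that the study calls translational efficiency. It is relative, because FPKM sets each library to a common scale, so a gene at 0 follows the bulk of RNA and not a fixed number of ribosomes. The genotype difference in loading was tested as an interaction over all 12 libraries. In it 0 of 9 members passed the limit, where 0.00543% of the 18414 genes tested did, and 0 of 9 reached an unadjusted p of 0.05, where 7.13% did. Sycp3 had the lowest value, -0.69 with a 95% interval of -1.67 to 0.30, followed by Hormad1 at -0.62 with -1.49 to 0.24 (limma, adjusted p = 0.748 and 0.742). These intervals were wide enough to leave a reduction in loading of more than 2-fold undetected for both genes. The smallest values were those of Sycp1, at -0.03, and Syce2, at 0.13.

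The largest differences among the members were between the assays, not between the genotypes. In Igf2bp3+/- spermatids 6 of 9 members passed the limit, 4 of them higher in RNC-seq than in RNA-seq (Tex12, Syce3, Syce2 and Hormad2) and 2 lower (Sycp1 and Sycp2). Among all genes 18.6% passed as higher and 25.2% as lower. In Igf2bp3-/- spermatids 3 members were higher (Tex12, Syce3 and Syce2) and 3 lower (Sycp2, Sycp1 and Syce1), against 12.5% and 14.0% of all genes. Libraries of the assays did not overlap for 4 members higher and 3 lower in the control, beside 4181 and 6059 of the 18414 genes tested. In the knockout this held for 3 members higher and 3 lower, beside 3528 and 3959 of all genes. The members' median loading was 0.59 in the control and 0.15 in the knockout, beside -0.10 and -0.04 over all genes.

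The lateral element partners Sycp2 and Sycp3 were loaded unequally. Sycp2 was at 13.1, 12.6 and 10.9 FPKM in Igf2bp3+/- RNA-seq and at 4.77, 2.99 and 5.55 FPKM in RNC-seq, so the assays did not overlap. Its loading was -1.48 ± 0.21 (SE; limma, adjusted p = 0.000119). In the knockout it was at 12.3, 12.4 and 13.3 FPKM and at 3.87, 3.19 and 2.91 FPKM, a loading of -1.91 ± 0.21 (SE; limma, adjusted p = 8.86e-05). Sycp2 was the least loaded member in both genotypes, and in the knockout only 0.847% of all genes tested had a lower loading.

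Sycp3, by contrast, was at 42.9, 40.3 and 27.1 FPKM in Igf2bp3+/- RNA-seq and at 88.2, 41.9 and 72.2 FPKM in RNC-seq. The assays overlapped through RNC-seq replicate 2 alone, and the loading of 0.84 ± 0.32 (SE) missed the limit (limma, adjusted p = 0.0509). It passed without the control RNC-seq library numbered 2 (1.15, adjusted p = 0.0139), and also without the knockout RNC-seq library numbered 2 or 3 (adjusted p = 0.0175 and 0.038). With the replicate number of each genotype as a block, pairing the assays, it passed as well (limma, adjusted p = 0.016). In Igf2bp3-/- it was at 35.8, 35.4 and 48 FPKM and at 50, 25.7 and 64.3 FPKM, a loading of 0.15 ± 0.32 (SE; limma, adjusted p = 0.776). Within a library, the ratio of Sycp3 to Sycp2 was 2.47 to 3.62 in RNA-seq and 8.07 to 22.1 in RNC-seq, with no overlap, so the lateral element pair differed more on polysomes than in total RNA in both genotypes. Chpt1, which overlaps Sycp3, had a loading of -1.77 in the control and -0.76 in the knockout, the opposite sign to that of Sycp3.

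The transverse filament gene Sycp1 was also depleted from polysomes. It was at 12.2, 10.8 and 9.4 FPKM in Igf2bp3+/- RNA-seq and at 6.53, 4.56 and 6.7 FPKM in RNC-seq. In the knockout it was at 10.4, 10.2 and 12.7 FPKM and at 7.73, 4.77 and 5.44 FPKM. The assays did not overlap in either genotype. The loading was -0.87 ± 0.21 in the control and -0.90 ± 0.21 in the knockout (SE; limma, adjusted p = 0.00445 and 0.00694), a polysomal level of 0.548 and 0.535 of that in total RNA.

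The central element held the most loaded members. Tex12 stood at 0.973, 1.46 and 1.07 FPKM in Igf2bp3+/- RNA-seq against 2.95, 2.38 and 3.03 FPKM in RNC-seq, a loading of 1.20 ± 0.28 (SE; limma, adjusted p = 0.0037). In the knockout the loading was 1.41 ± 0.28 (SE; limma, adjusted p = 0.0029), higher than that of 98.6% of all genes tested. RNC-seq lay above RNA-seq in every library of both genotypes. Syce3, the small protein that links the transverse filament to the central element, rose from 62.7, 53.8 and 37 FPKM in Igf2bp3+/- RNA-seq to 107, 118 and 91.3 FPKM in RNC-seq. Its loading was 1.07 ± 0.21 in the control and 1.22 ± 0.21 in the knockout (SE; limma, adjusted p = 0.0011 and 0.00118), 2.1-fold and 2.33-fold. Syce2 had a loading of 0.83 ± 0.17 and 0.97 ± 0.17 (SE; limma, adjusted p = 0.00173 and 0.00155), and its assays did not overlap in either genotype.

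Syce1 did not follow the other central element members. It was at 254, 250 and 226 FPKM in Igf2bp3+/- RNA-seq and at 217, 187 and 216 FPKM in RNC-seq. RNC-seq lay lower without overlap, as for 6059 of 18414 genes, and the loading of -0.23 ± 0.15 did not pass (SE; limma, adjusted p = 0.229). With quantile normalization it was -0.56 and past the limit (limma, adjusted p = 0.000829), which made 3 members lower in the control. In the knockout it was at 257, 248 and 317 FPKM and at 243, 185 and 179 FPKM, a loading of -0.44 ± 0.15 (SE; limma, adjusted p = 0.0446). That call was lost in 10 of the 12 fits that left out 1 library, with values of -0.58 to -0.33, and held only without either the control RNC-seq library numbered 2 or the knockout RNC-seq library numbered 1. It was also lost with the replicate block (limma, adjusted p = 0.0881). The loading difference between genotypes, -0.21, did not pass (limma, adjusted p = 0.82). Within a library the ratio of Syce1 to Syce3 was 4.05 to 6.23 in RNA-seq and 1.35 to 2.37 in RNC-seq, with no overlap. 4930447C04Rik (Six6os1), a central element gene outside the members, was at 0.134 to 0.569 FPKM over the 12 libraries. Its loading, -0.50 in Igf2bp3+/- and -0.60 in Igf2bp3-/-, had the sign of that of Syce1 but did not pass (limma, adjusted p = 0.35 and 0.312).

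**Figure D3:**
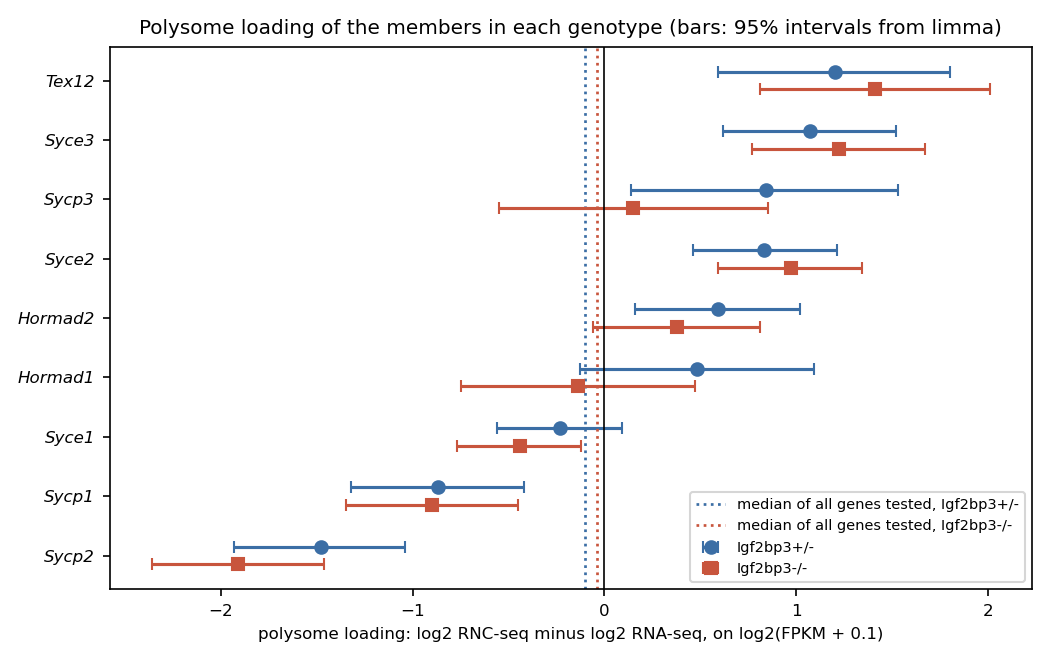
Polysome loading (log2 RNC-seq minus log2 RNA-seq, on log2(FPKM + 0.1)) of each member in Igf2bp3+/- (blue circles) and Igf2bp3-/- (red squares); bars are 95% intervals from limma and dotted lines the medians of all genes tested, -0.10 and -0.04. Members run from Sycp2 at the bottom, at -1.48 and -1.91, to Tex12 at the top, at 1.20 and 1.41, and the intervals of the 2 genotypes overlap for every member.

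The HORMA-domain genes were less clearly placed. Hormad2 was at 2.17, 2.19 and 1.85 FPKM in Igf2bp3+/- RNA-seq and at 3.67, 2.54 and 3.4 FPKM in RNC-seq, a loading of 0.59 ± 0.20 (SE; limma, adjusted p = 0.028). The call was lost when any of the control libraries other than RNC-seq replicate 2 was left out, with adjusted p from 0.0516 to 0.108, and with the replicate block (limma, adjusted p = 0.0511). In the knockout its loading was 0.38 ± 0.20 (SE; limma, adjusted p = 0.186). Hormad1 was at 14.5, 15.6 and 13.2 FPKM in Igf2bp3+/- RNA-seq and at 28.9, 12.3 and 23 FPKM in RNC-seq, where replicate 2 lay below all 3 RNA-seq libraries and the other two above them. Its loading was 0.48 ± 0.28 in the control and -0.14 ± 0.28 in the knockout (SE; limma, adjusted p = 0.189 and 0.755). Without the control RNC-seq library numbered 2 the control value was 0.83 (adjusted p = 0.0156), and without the knockout RNC-seq library numbered 2 the knockout value turned to 0.12 (adjusted p = 0.78).

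Scaling moved the reference point but not the split within the complex. With each library centred on its median, the all-gene median loading in the control went from -0.10 to 0.07, and all-gene calls from 3420 higher and 4639 lower to 4725 higher and 3621 lower. In that setting 5 members were higher, Sycp3 among them, and Sycp1 and Sycp2 were lower. Relative to the all-gene median, Sycp1 and Sycp2 thus lay below and Syce2, Syce3 and Tex12 above in both genotypes as deposited, and the calls of these 5 genes held with centring and with quantile normalization.

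Loading followed transcript length among the members, as it did among all genes. Over 12814 protein-coding genes, Spearman's correlation of loading with the longest annotated transcript was -0.475 in Igf2bp3+/- and -0.432 in Igf2bp3-/-, and over the 9 members it was -0.833 and -0.717. These are descriptions across genes, which are not independent replicates and share the same 12 libraries and a unit that divides by length. In the control, the median loading was 0.72 for transcripts of up to 1000 bases, 0.16 for 1000 to 2000, -0.26 for 2000 to 4000 and -0.68 above 4000. Syce3 and Tex12, at 480 and 1003 bases, and Sycp1 and Sycp2, at 3437 and 5717 bases, lay toward the ends of a length trend that was not particular to the complex. Against the median of its length class in the control, Tex12 was at 1.20 beside 0.16. At 1003 bases it lies at the edge of that class, and the class up to 1000 bases had a median of 0.72, nearer to Tex12 but still below it. Syce2 was at 0.83 beside 0.16, and Syce3 at 1.07 beside 0.72. In the knockout Tex12 was at 1.41 and Syce2 at 0.97 beside 0.14. Syce3 was at 1.22 beside the 0.60 of the class up to 1000 bases, which Tex12 also exceeded. Sycp2 was still low in the control, at -1.48 beside -0.68, and Sycp1 at -0.87 beside -0.26. Among members of 1000 to 2000 bases Syce1 was the only one below the median for that length in the control, at -0.23 beside 0.16, and in the knockout Syce1 and Hormad1 were below it, at -0.44 and -0.14 beside 0.14.

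Other genes of meiotic recombination and chromosome structure were read in the same way from a list of 38, of which 37 were in the table. For genotype, 0 of 36 passed the limit in RNA-seq, and 0 of 35 in RNC-seq and in the loading difference. At an unadjusted p of 0.05, 1 gene was past in each comparison, Psmc3ip in RNA-seq (0.40) and Rec8 in RNC-seq (0.80) and in the loading difference (0.68). Rec8, a meiotic cohesin subunit, was at 17.6, 20.4 and 24.1 FPKM in Igf2bp3+/- and at 46.7, 39.6 and 24.6 FPKM in Igf2bp3-/- RNC-seq, without overlap (limma, adjusted p = 0.673).

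Between the assays, 3 of 35 of these genes were higher and 12 lower in RNC-seq in Igf2bp3+/-, and 1 was higher and 8 lower in Igf2bp3-/-, with a median loading of -0.46 and -0.31. Among all genes the shares were 18.6% higher and 25.2% lower in Igf2bp3+/- and 12.5% and 14.0% in Igf2bp3-/-, with medians of -0.10 and -0.04. The meiotic cohesin genes Smc1b, Rec8 and Stag3, whose products build the axis on which Sycp2 and Sycp3 assemble, were all 3 lower in the control, and Smc1b and Stag3 in the knockout. Smc1b was the lowest of the list in both, at -1.32 and -1.36, and went from 56.5, 50.7 and 40.4 FPKM in control RNA-seq to 19, 15.5 and 24.9 FPKM in RNC-seq. Its loading was nearer to that of Sycp2 than to that of Sycp3. By length, Smc1b and Stag3, at 4047 and 4669 bases, belong with genes above 4000 bases, whose median in the control was -0.68. Stag3 was near that median, at -0.78, and Smc1b below it. Rec8, at 2184 bases, was at -0.68 in the control beside -0.26 for genes of 2000 to 4000 bases. The medians of this list were not matched for length.

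In Igf2bp3+/- the most loaded gene of the list was Spo11, the enzyme that makes meiotic breaks. It was at 20, 21.4 and 19.7 FPKM in Igf2bp3+/- RNA-seq and at 73.8, 43.2 and 55.3 FPKM in RNC-seq, a loading of 1.46 ± 0.19 (SE; limma, adjusted p = 8.38e-05). In the knockout Spo11, at 0.96 (limma, adjusted p = 0.00314), was the only gene of the list past the limit as higher, while Rec114, a partner in break formation, was at 1.02 without passing (limma, adjusted p = 0.0658). The longest annotated transcript of Spo11, 3619 bases, is longer than that of Sycp1, so by that measure Spo11 departed from the length trend. Psmc3ip, a cofactor of strand exchange, and Rnf212, a crossover factor, were the other two higher in the control, at 0.75 and 0.63, although 21.2% of the exonic bases of Psmc3ip overlap Mlx on the opposite strand. Among those lower were the mismatch repair gene Mlh3 at -1.20 and the telomere attachment gene Terb1 at -1.12 in the control, and the helicase gene Hfm1 at -1.08 and Terb1 at -0.96 in the knockout.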

How the data were processed

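Per the labels and the study's methods, the authors trimmed reads with Trim Galore, aligned them to GRCm38 with HISAT2 and deposited FPKM from StringTie 2.1.7, 1 table for all 12 libraries. The annotation release and strand use are not given in the sources used here, and labels and methods name different library kits. Of 28668 symbols, 25 turned into dates by a spreadsheet (0.0995% of summed FPKM) were left out. The table gives no counts, so the study's count test was replaced by limma 3.58.1 (R 4.3.3) on log2(FPKM + 0.1), which understates changes of low genes, with an intensity trend, two-sided, Benjamini-Hochberg adjusted over all genes tested, limit 0.05. Genes needed a mean FPKM above 0.1, for both loading and its genotype difference in each assay. Genotype was fitted over 6 libraries per assay, loading and its genotype difference over 12. No block was used, and the study's methods name none. RNA-seq input and polysomal RNA came from one extract per the methods, but no source says that the replicate number marks it. Deviations of same-numbered libraries from their group means correlated between assays at -0.0583 to 0.0894. Between genotypes they correlated at -0.0144 to 0.154, the highest being the RNC-seq libraries numbered 2. A fit with the number as a replicate block was run beside the main fit. Scripts were tested on simulated data. Positions and lengths came from GENCODE M21, and copies from BLAST 2.17.0.

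Named genes were all 9 members, Igf2bp3, listed meiotic genes past the limit for genotype, and the 3 highest and 3 lowest called loadings of that list. The 5 genes most correlated with the members' mean were named too. Genes named for an overlap, a copy, a marker list or an unadjusted p were added afterwards. Members and lists were chosen with earlier results of these data known.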

Additional observations from a re-analysis of the deposited data

How the results depend on the processing

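For genotype, 0 of 9 members passed the limit in RNA-seq, RNC-seq or the loading difference under any alternative run, the replicate block included. In a block by replicate number, calls for loading in Igf2bp3+/- became Sycp3, Syce2, Syce3 and Tex12 higher (Sycp3 adjusted p = 0.016, Hormad2 0.0511), and Syce1 in Igf2bp3-/- was lost (0.0881), while all-gene RNA-seq calls went from 40 higher and 12 lower to 4 and 0 and RNC-seq calls from 15 and 7 to 23 and 8. The block changed no other call of a member. Loading of Sycp3 in Igf2bp3+/- also passed with a pseudocount of 1, a mean FPKM above 1, quantile normalization, library weights and a fit over that genotype alone (limma, adjusted p = 0.0107 to 0.0482). Hormad1 in Igf2bp3+/- passed with library weights (limma, adjusted p = 0.0425). Syce1 in Igf2bp3-/- was also lost without a filter, with library weights and in its own genotype's fit (limma, adjusted p = 0.0669, 0.0876 and 0.114). Loading calls of Sycp1, Sycp2, Syce2, Syce3 and Tex12 held in both genotypes under all alternatives, with 3 to 6 members higher and 2 lower in Igf2bp3+/- and 3 higher and 2 to 3 lower in Igf2bp3-/- on leaving out libraries.

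Signs of small genotype values turned, and the cause was not tested. In RNA-seq, quantile normalization gave -0.04 for Sycp1, -0.02 for Sycp2 and Syce1 and -0.0011 for Syce3, and library weights -0.04 for Sycp1, -0.03 for Sycp3 and -0.05 for Hormad2. In RNC-seq, Sycp1 was at -0.12 with centring and with quantile normalization, -0.04 with weights and -0.03 without both libraries numbered 2. In the loading difference Sycp1 was at 0.01 with weights. Loading of Hormad1 in Igf2bp3-/- was 0.12 without both libraries numbered 2. Leaving out single libraries gave ranges across 0 in RNA-seq for Sycp1 (-0.06 to 0.13), Sycp2 (-0.03 to 0.10), Sycp3 (-0.08 to 0.25), Syce3 (-0.11 to 0.27) and Hormad2 (-0.10 to 0.16), and in RNC-seq for Sycp1 (-0.19 to 0.15) and Syce1 (-0.18 to 0.04). In the loading difference they were -0.23 to 0.11 for Sycp1, -0.0048 to 0.31 for Syce2, -0.01 to 0.36 for Syce3 and -0.01 to 0.57 for Tex12, and for loading in Igf2bp3-/- -0.13 to 0.53 for Sycp3 and -0.37 to 0.12 for Hormad1.

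All-gene calls moved by more than 1.5 times in some settings. RNA-seq gave 23 higher and 8 lower without a filter, 54 and 30 with weights and 594 and 515 at an unadjusted p of 0.05 with 1.5-fold. Leaving out 1 library left 6 and 3, 7 and 2, and 5 and 6 without Igf2bp3-/- replicate 1, 2 and 3, and 20 and 2, 21 and 3, and 27 and 11 without Igf2bp3+/- replicate 1, 2 and 3. RNC-seq gave 2 and 0, 16 and 8, and 901 and 201 in the same settings, 38 and 10 over all 12 libraries, and 0 and 0 without the Igf2bp3-/- library numbered 1 or without both numbered 2. Without any other single library it gave 4 to 15 higher and 3 to 5 lower. Loading calls in Igf2bp3-/-, 2303 and 2583, went to 1399 and 1733 without its RNA-seq replicate 1, 1401 and 1688 without its RNA-seq replicate 2, 1523 and 2260 without its RNC-seq replicate 1 and 1516 and 1741 without its RNC-seq replicate 3. The loading difference, 1 higher, ranged from 0 to 2, or 955 and 252 unadjusted. Depth is known only in relative terms, 3 libraries per group limit the genotype tests, and the FPKM scale shows relative loading.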

Other observations

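The genes whose pattern over the 12 libraries was most like the members' mean were searched among 11380 genes with a mean of at least 1 FPKM in both assays. Pearson's r with the members' mean standardized log2 value was used. That mean pools members that went in opposite directions between the assays. It was lowest in Igf2bp3+/- RNA-seq replicate 3, at -0.72, and Igf2bp3-/- RNC-seq replicate 2, at -0.61. The 5 highest were Hmgb4 (0.975), Ssxb5 (0.969), Brix1 (0.957), 4930403P22Rik (0.956) and Gm45185 (0.954), given as a description over libraries that fall into 4 groups. Hmgb4 was at 600, 608 and 418 FPKM in Igf2bp3+/- RNA-seq and at 823, 543 and 741 FPKM in Igf2bp3+/- RNC-seq. Replicate 2 was its lowest on polysomes, as for 7 of the 9 members, a likeness that its choice by correlation already favoured.

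Syce1l, a relative of Syce1 by name, was at 32, 28.4 and 23.1 FPKM in Igf2bp3+/- RNA-seq and at 27.7, 26.1 and 28.7 FPKM in RNC-seq, a loading of -0.01 (limma, adjusted p = 0.983). Sycp1-ps1, the pseudogene nearest to Sycp1, was at 1.09, 0.886 and 1.32 FPKM and at 0.348, 0.475 and 0.377 FPKM, a loading of -1.25 (limma, adjusted p = 0.00268), beside -0.87 for Sycp1. Gm15529, the near-identical copy of Hormad1, had a loading of 0.52 in Igf2bp3+/- (limma, adjusted p = 0.255), beside 0.48 for Hormad1. How far reads of a gene and its copy were shared was not tested. These genes were chosen after their values were seen.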
